A study of Mus musculus with 6 samples.

Results

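The genes described are those of the cytosolic ribosomal proteins in mouse liver. They are the rows of the deposited expression table whose symbol is Rpl or Rps with a number and at most a closing a, x, l or l1, together with Rplp0, Rplp1, Rplp2 and Rpsa. This gave 86 of 56534 genes, 53 named for the large and 33 for the small ribosomal subunit, on 19 chromosomes. Symbols of pseudogenes and of ribosomal proteins named otherwise, such as Rack1 or Fau, are not matched. The mice were C57BL/6 and all received a high-fat diet, with 60% of the calories from fat, for 16 weeks. LKO livers (n = 3 libraries) were labelled as lacking CD36, a fatty acid transporter of the cell surface, and CON livers (n = 3 libraries) as wild type. The series title names a deletion specific to hepatocytes, while the genotype label of LKO reads CD36-/-, and the values here do not settle in which cells the gene was lost. The sources used here do not give what drives the deletion, nor the age and sex of the mice. Nothing in the labels says that libraries of 1 group were separate mice, so p-values measure only how these libraries vary.

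The cytosolic ribosome reads messenger RNA and makes nearly all proteins of the cell. Its small subunit decodes the message and its large subunit joins the amino acids, each built from ribosomal RNA and a set of proteins. The messages of ribosomal proteins are short and abundant, and most begin with a run of pyrimidine bases, the TOP motif, through which the mTORC1 pathway controls their translation. The liver, which exports plasma proteins, is rich in ribosomes.

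Most ribosomal protein messages lay above the bulk of the transcriptome in the comparison of LKO with CON, but none passed the test. Expression was given as FPKM, fragments scaled to the length of the gene and the size of the library. Genes with a mean of at least 1 FPKM over the 6 libraries were tested with limma on log2(FPKM + 1), a scale that understates the change of low genes, and a gene was called at a Benjamini-Hochberg adjusted p under 0.05 over all 11104 tested genes. Of the 81 ribosomal protein genes tested, 0 were called, where the background was 0.00901% (1 gene, lower in LKO). With no adjustment, 10 members were higher in LKO and 0 lower at a p under 0.05, against a background of 3.25% of all genes higher and 18.9% lower. These counts depended on the scaling. With median-ratio scaling 44 members were higher and 0 lower, among 1136 higher and 884 lower of all genes, and with quantile normalization 22 members were higher and 0 lower, among 934 higher and 1075 lower genes. Leaving out 1 library gave 0 to 44 higher members. Without LKO 3, 44 members were higher and 1 lower, among 965 higher and 3657 lower of 11150 tested genes. Without any other library at most 4 were higher. Those 4 were without CON 2, among 217 higher and 1605 lower of 11125 tested genes. The median log2 fold change of LKO over CON was 0.30 over the members and -0.23 over all tested genes. The members' values ran from -0.52 for Rps3 to 1.12 for Rps12l1, and 79 of 81 lay above the median of all genes. Of the members, 71 had a log2 fold change above 0, as did 28.4% of all tested genes. All 3 LKO libraries lay above all 3 CON libraries in 20 members, against a background of 3.92%, and below them in 1 member, against a background of 24.3%. Scaling the libraries by median ratios moved the median of all genes to 0.01 and that of the members to 0.60, so the size of each fold change depends on the scale, while the distance between the medians was 0.53 as deposited and 0.59 after scaling. That distance was 0.31 without the filter on low genes and 0.31 with the trend of fold change with length removed. In bulk liver, fewer cells of a type and less RNA per cell cannot be told apart.

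The libraries of a group did not move together. Values for LKO 1 to LKO 3 and CON 1 to CON 3 are given in the order of the library numbers. As the median deviation from the CON mean on the log2 scale, the members stood at 0.40, 0.48 and 0.09 in LKO 1 to LKO 3, against -0.19, 0.13 and 0.06 in CON 1 to CON 3. LKO 1 and LKO 2 were thus well above every CON library, LKO 3 lay between CON 2 and CON 3, and CON 1 was the lowest. Over all tested genes the same median was -0.21, -0.38 and -0.11 in LKO 1 to LKO 3, against 0.08, -0.09 and 0.01 in CON 1 to CON 3. The members also differed more among themselves in 2 of the libraries, with an interquartile range of the deviations of 0.367, 0.474 and 0.093 in LKO 1 to LKO 3, against 0.094, 0.075 and 0.074 in CON 1 to CON 3. In CON 1 only 2 of the 81 members were above the CON mean, while in CON 2 it was 79. Without LKO 3, limma called 22 members higher and 1 lower in LKO, against a background of 4.67% of the tested genes higher and 18.9% lower. Leaving out any other library called 0 members.

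**Figure D1:**
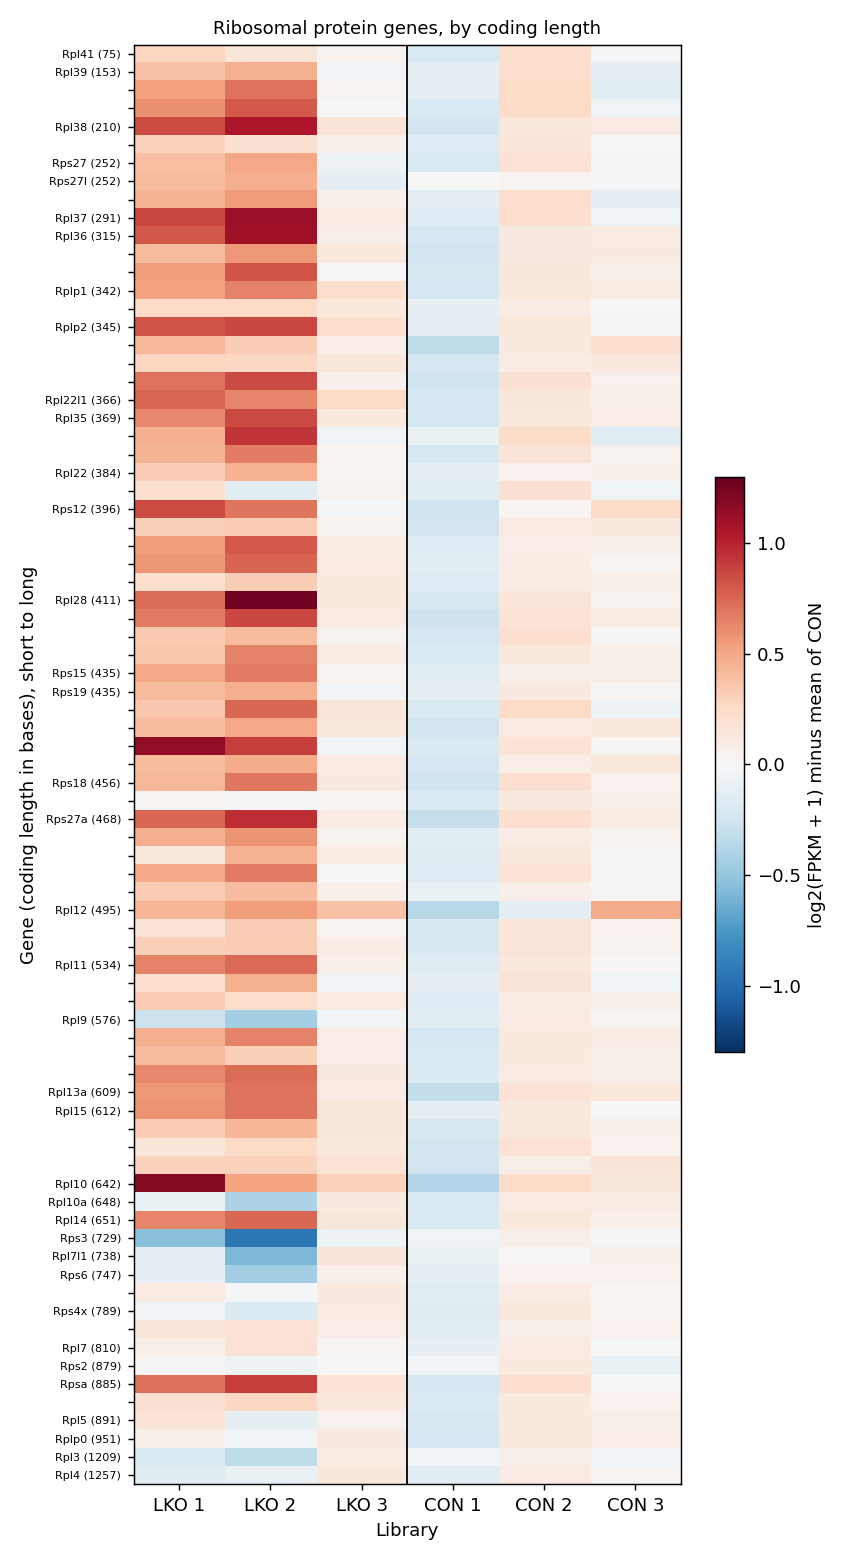
Each row is a tested ribosomal protein gene with an annotated coding length, in order of that length and labelled where a fixed rule names it, and each column a library. Colour gives log2(FPKM + 1) minus the mean of the 3 CON libraries. The columns of LKO 1 and LKO 2 are red over most rows and blue over several long genes, that of LKO 3 is close to white, and CON 1 is pale blue in nearly every row.

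The members took a similar share of each library. They held 3.20%, 3.16% and 3.15% of the summed FPKM in LKO 1 to LKO 3, against 3.02%, 3.39% and 3.02% in CON 1 to CON 3, so the groups overlapped on this measure. A few very abundant genes weigh on the total behind that share. The major urinary proteins took 29.4%, 28.9% and 23.9% in LKO 1 to LKO 3, against 6.22%, 15.6% and 22.1% in CON 1 to CON 3, and the mitochondrially encoded genes took 4.14% to 10.1% in LKO and 3.88% to 6.18% in CON. With both sets left out of the total, the members took 4.90%, 5.19% and 4.37% in LKO 1 to LKO 3, against 3.45%, 4.25% and 4.08% in CON 1 to CON 3, and the groups no longer overlapped. With both sets removed and the libraries rescaled, limma called 0 members. At a p under 0.05 before adjustment, 18 members were higher in LKO and 0 lower, among 343 higher and 1865 lower of 11074 tested genes. The median log2 fold change was then 0.27 over the members and -0.25 over all genes.

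Cd36 was listed at 2.73, 3.70 and 10.2 FPKM in LKO 1 to LKO 3, against 62.0, 26.5 and 19.7 FPKM in CON 1 to CON 3. All LKO libraries were below all CON libraries, with LKO 3 the closest, and the gene did not pass (log2 fold change -2.50, SE 0.51, limma adjusted p = 0.163). Markers of 10 cell types were summed per library. Hepatocyte markers summed to 48806 to 58977 FPKM in LKO and 55403 to 77347 FPKM in CON, and 1 of 8 had a log2 fold change above 0 (list median -0.57). Kupffer cell markers summed to 91.1 to 184 FPKM in LKO and 123 to 182 FPKM in CON, with 2 of 8 above 0 (-0.20). Sinusoidal endothelial markers summed to 55.2 to 82.3 FPKM in LKO and 41.6 to 127 FPKM in CON, with 0 of 8 above 0 (-0.27). Stellate cell markers summed to 85.9 to 128 FPKM in LKO and 89.4 to 102 FPKM in CON, with 6 of 8 above 0 (0.19). These 4 sums overlapped between the groups. Of the cholangiocyte markers 3 of 3 tested were above 0, and of the erythroid markers 1 of 3. T and NK cell marker sums were the only ones of the 10 lists to be higher in every LKO library, at 4.57 to 7.03 FPKM in LKO and 2.80 to 4.48 in CON. Neutrophil marker sums were the only ones to be lower, at 1.65 to 4.71 FPKM in LKO and 5.14 to 10.3 in CON. Both sums were low, and 3 of 5 T and NK cell markers and 2 of 4 neutrophil markers averaged under 1 FPKM. The B cell and proliferation markers all averaged under 1 FPKM, and the part of other cell types in the members' values was not tested. The depth in reads is unknown, since only FPKM were used.

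The members' promoters were searched for short sequences, which were also counted over all promoters. Of the 86 members, 63 had an entry in a RefSeq table of promoters (GRCm38.p6), which holds 250 bases before and 50 after the annotated start. A run of at least 8 C or T on the sense strand, overlapping the 10 bases either side of the start, was found in 44.4% of these 63 and in 13.9% of all 27025 promoters. The letters CCGGAAG, the core of ETS-type sites, were found on either strand in 38.1% of the members' promoters and 9.12% of all. AAGATGG, of YY1-type sites, was in 14.3% and 6.48%, and TATAAA in 11.1% and 14.2%. Printed here, 5′ to 3′ on the gene's strand from 25 bases before the start to 20 after it, are the members with the 4 highest and the 4 lowest log2 fold changes among those with an entry. Capitals mark the pyrimidine run where one was found.
Rpl28, chr7:4792940-4792984, plus strand: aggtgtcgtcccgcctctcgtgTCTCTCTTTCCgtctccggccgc
Rpl37, chr15:5116588-5116632, plus strand: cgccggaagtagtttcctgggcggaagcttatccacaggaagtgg
Rpl38, chr11:114668555-114668599, plus strand: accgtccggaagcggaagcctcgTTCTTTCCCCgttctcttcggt
Rps13, chr7:116334171-116334215, minus strand: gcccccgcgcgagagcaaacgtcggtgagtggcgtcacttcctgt
Rps3, chr7:99483690-99483734, minus strand: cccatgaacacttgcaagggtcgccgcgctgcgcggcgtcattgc
Rpl9, chr5:65391412-65391456, minus strand: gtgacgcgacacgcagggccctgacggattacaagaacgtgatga
Rpl7l1, chr17:46782637-46782681, minus strand: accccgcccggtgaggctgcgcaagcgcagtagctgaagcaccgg
Rps6, chr4:86857348-86857392, minus strand: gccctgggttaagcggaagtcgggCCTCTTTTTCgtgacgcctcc

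A pyrimidine run stood at both ends of this order, in Rpl28 and Rpl38 and in Rps6. Over the tested members, the median log2 fold change was 0.28 for the 27 with a run (-0.16 to 0.71) and 0.36 for the 32 without (-0.52 to 0.69), so the ranges overlapped almost fully. No test was made of this split. Where a run was missing, only these letters were missing from the annotated window.

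Among the proteins of the large subunit, 43 of 48 tested members had a log2 fold change above 0, with a median of 0.35. The acidic proteins P1 and P2 form the stalk that recruits elongation factors, anchored by P0. Rplp2, the member with the smallest p, was at 344, 358 and 226 FPKM in LKO 1 to LKO 3, against 178, 215 and 193 FPKM in CON 1 to CON 3. Each LKO library was above each CON library, LKO 3 by a small margin (log2 fold change 0.63, SE 0.22, limma adjusted p = 0.196). Rplp1, the second most abundant member, averaged 1376 ± 203 FPKM in LKO and 1000.2 ± 134 FPKM in CON (SD, n = 3 each), again with no overlap. Rplp0, the anchor, averaged 350.4 ± 19.2 FPKM in LKO and 341 ± 44.0 FPKM in CON, and the libraries were mixed. The stalk's 3 messages therefore had log2 fold changes of 0.46 for Rplp1, 0.63 for Rplp2 and 0.05 for Rplp0.

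The largest fold changes of the large subunit were those of Rpl28, Rpl37 and Rpl38, whose start sites are printed above. Rpl28 was at 299, 435 and 199 FPKM in LKO 1 to LKO 3, against 156, 202 and 187 FPKM in CON 1 to CON 3 (log2 fold change 0.71, SE 0.29, limma adjusted p = 0.215). Rpl37 was at 278, 329 and 164 FPKM in LKO 1 to LKO 3, against 135, 178 and 147 FPKM in CON 1 to CON 3 (0.69, SE 0.28, adjusted p = 0.212). In both genes LKO 3 fell within the CON range. Rpl38, a protein linked in mice to the translation of Hox messages, was at 788, 911 and 492 FPKM in LKO 1 to LKO 3, against 369, 482 and 473 FPKM in CON 1 to CON 3 (0.69, SE 0.27, adjusted p = 0.208). Here LKO 3 stayed just above CON 2. Rpl36, the third most abundant member, repeated the pattern of Rpl28, at 1444, 1775 and 867 FPKM in LKO 1 to LKO 3, against 704, 898 and 888 FPKM in CON 1 to CON 3 (0.66, SE 0.29, adjusted p = 0.231).

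Rpl15, Rpl14, Rpl35 and Rpl10 complete the members of the large subunit with a p under 0.05 before adjustment, beside Rpl22l1, which is described with its parent gene. Rpl15 averaged 177 ± 33.8 FPKM in LKO and 125 ± 10.9 FPKM in CON (0.48, adjusted p = 0.219), with no overlap. Rpl35, near the exit of the peptide tunnel, averaged 177 ± 44.1 FPKM in LKO and 119.8 ± 16.0 FPKM in CON (0.54, adjusted p = 0.226), with LKO 3 inside the CON range. Rpl14 averaged 217 ± 45.6 FPKM in LKO and 150.3 ± 18.1 FPKM in CON (0.51, adjusted p = 0.222). Rpl10, which joins the subunit last, averaged 490.2 ± 167 FPKM in LKO and 302 ± 65.5 FPKM in CON (0.67, adjusted p = 0.224). Neither Rpl14 nor Rpl10 overlapped between groups, and both have an abundant copy listed in a row of its own, as given further on. Rpl13a, released from the ribosome under interferon gamma and used as a reference gene in quantitative PCR, was the most abundant member. It averaged 1453 ± 297 FPKM in LKO and 1051 ± 185 FPKM in CON (0.46, adjusted p = 0.283), with LKO 3 inside the CON range.

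Rpl5 and Rpl11 bind the 5S ribosomal RNA and, when ribosome assembly fails, hold back Mdm2, the inhibitor of p53. Rpl11 was at 607, 648 and 405 FPKM in LKO 1 to LKO 3, against 349, 428 and 392 FPKM in CON 1 to CON 3, so that LKO 3 lay within the CON range (log2 fold change 0.48, limma adjusted p = 0.250). Rpl5 was at 75.7, 61.3 and 69.4 FPKM in LKO 1 to LKO 3, against 57.8, 73.2 and 70.7 FPKM in CON 1 to CON 3 (0.04, adjusted p = 0.914). The libraries of both groups were mixed for Rpl5. Rpl41, whose coding length of 75 bases is the shortest of the members, averaged 729 ± 59.1 FPKM in LKO and 656 ± 92.6 FPKM in CON (0.16, adjusted p = 0.614).

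In 5 of the 48 large subunit members the fold change was below 0, none past the test. Rpl9 was at 289, 258 and 341 FPKM in LKO 1 to LKO 3, against 319, 376 and 358 FPKM in CON 1 to CON 3 (log2 fold change -0.25, SE 0.19, limma adjusted p = 0.410). Its LKO 1 and LKO 2 were below every CON library and LKO 3 was not. Rpl3, which shapes the peptidyl transferase centre, averaged 173 ± 27.0 FPKM in LKO and 190.2 ± 9.11 FPKM in CON (-0.14), and Rpl10a averaged 321 ± 57.5 FPKM in LKO and 349 ± 40.1 FPKM in CON (-0.13). Rpl4, which lines the peptide tunnel, averaged 326 ± 36.4 FPKM in LKO and 333 ± 29.4 FPKM in CON (-0.03). The fifth is the paralogue Rpl7l1. Of these 5 only Rpl9 lay below the median of all tested genes, at -0.02 relative to it, and it lay above that median under median-ratio scaling and with the length trend removed.

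**Figure D2:**
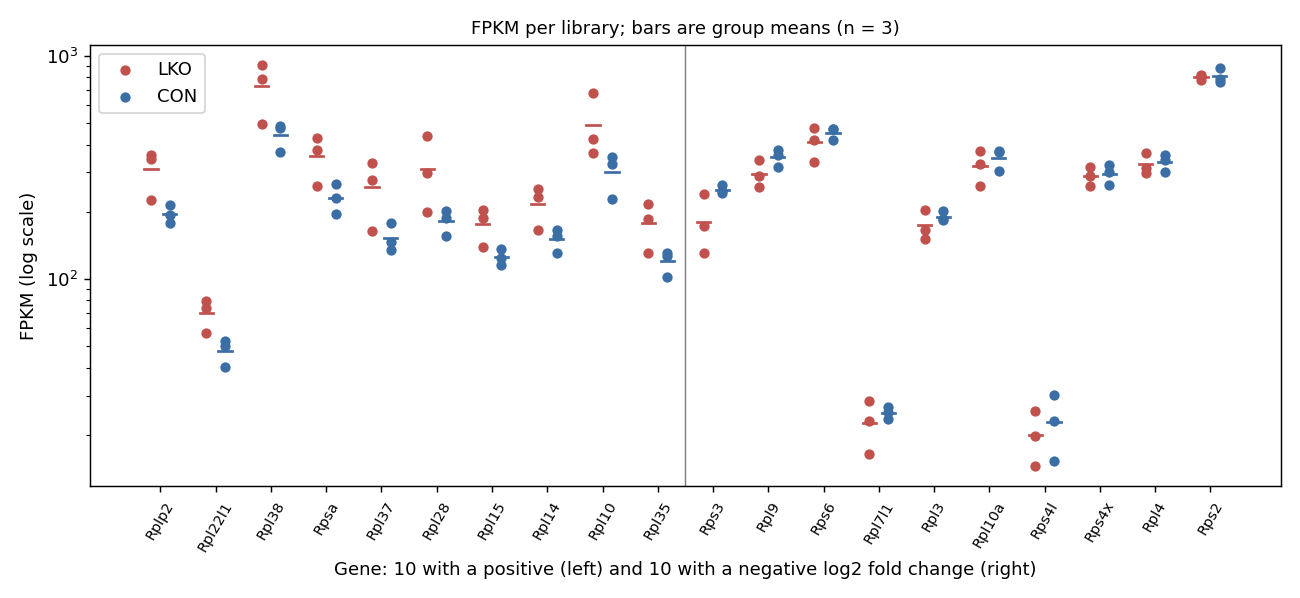
FPKM on a log scale for the 10 members with the smallest p at a positive (left) and at a negative (right) log2 fold change. Points are libraries, LKO in red and CON in blue, and short lines are group means of 3 libraries. In each of the left-hand genes the lowest LKO point lies close to the highest CON point, while at right the groups overlap in every gene but Rps3.

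Among the proteins of the small subunit, 28 of 33 tested members had a log2 fold change above 0, with a median of 0.28. Rpsa, also known as the laminin receptor, was at 377, 428 and 259.7 FPKM in LKO 1 to LKO 3, against 195, 267 and 231 FPKM in CON 1 to CON 3 (log2 fold change 0.60, SE 0.24, limma adjusted p = 0.212). LKO 1 and LKO 2 were above all CON libraries and LKO 3 was below CON 2. Rps27a, made as a fusion with ubiquitin, averaged 236 ± 67.6 FPKM in LKO and 152 ± 26.7 FPKM in CON (0.60, adjusted p = 0.230). Rps13 was at 318, 266 and 139 FPKM in LKO 1 to LKO 3, against 125, 161 and 144 FPKM in CON 1 to CON 3 (0.67, SE 0.31, adjusted p = 0.241), so that its LKO 3 was below 2 of the CON libraries. Rps19, a gene mutated in Diamond-Blackfan anaemia, averaged 217 ± 39.4 FPKM in LKO and 177 ± 14.9 FPKM in CON (0.28, adjusted p = 0.388), with overlap.

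The most abundant messages of the small subunit did not behave alike. Rps27 averaged 1193 ± 235 FPKM in LKO and 977 ± 130.3 FPKM in CON (log2 fold change 0.28), and Rps15, of the decoding region, averaged 899.6 ± 193 FPKM in LKO and 669.9 ± 53.3 FPKM in CON (0.40). Rps18, a common reference gene, averaged 881 ± 171 FPKM in LKO and 662 ± 106 FPKM in CON (0.41). Rps2, at the entry of the messenger RNA channel, was level at 816, 774 and 809.8 FPKM in LKO 1 to LKO 3, against 788, 881 and 762 FPKM in CON 1 to CON 3 (-0.02). Its LKO libraries all fell within the CON range, and the limma adjusted p was 0.961.

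Rps3 was the member that lay lowest relative to CON, and the only one with all LKO libraries below all CON libraries. The protein sits at the entry of the messenger RNA channel and also cuts damaged DNA. It was at 172, 130.5 and 239 FPKM in LKO 1 to LKO 3, against 241, 264 and 248 FPKM in CON 1 to CON 3. LKO 3 lay just under CON 1, and LKO 1 and LKO 2 far below (log2 fold change -0.52, SE 0.24, limma adjusted p = 0.241). Without LKO 3, Rps3 fell by 0.74 on the log2 scale (limma adjusted p = 0.0317). Rps6, the protein that S6 kinase phosphorylates below mTORC1, was at 419, 332 and 474 FPKM in LKO 1 to LKO 3, against 418, 469 and 470.1 FPKM in CON 1 to CON 3 (-0.16, adjusted p = 0.620). In Rps6, LKO 2 stood apart from the other libraries of both groups. Rps4x averaged 289 ± 29.2 FPKM in LKO and 296 ± 30.4 FPKM in CON (-0.03).

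The summed FPKM of the large subunit members divided by that of the small was 1.38, 1.39 and 1.37 in LKO 1 to LKO 3, against 1.31, 1.31 and 1.35 in CON 1 to CON 3. The groups did not overlap, and the gap between LKO 3 and CON 3 was smaller than that between CON 2 and CON 3. As sums, the large subunit members were at 20908 ± 3074 FPKM in LKO and 16368 ± 1881 FPKM in CON, and the small subunit members at 15138 ± 2156 FPKM in LKO and 12334 ± 1374 FPKM in CON. Of the 20 members whose groups did not overlap with LKO higher, 18 were among the 48 tested of the large subunit. The other 2 were among the 33 tested of the small subunit, against a background of 3.92% of all tested genes. These ratios, sums and counts use each member's own row only. Copies listed in rows of their own are described further on, and their part in these values was not tested.

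Several members are named as paralogues of a core protein, and some such paralogues can replace it in ribosomes. Whether those described here do so was not tested. Rpl22l1, paralogue of Rpl22, was at 79.8, 74.0 and 56.9 FPKM in LKO 1 to LKO 3, against 40.3, 52.5 and 49.9 FPKM in CON 1 to CON 3 (log2 fold change 0.55, SE 0.20, limma adjusted p = 0.197). All LKO libraries were above all CON libraries. Rpl22 itself averaged 255 ± 36.7 FPKM in LKO and 211 ± 15.7 FPKM in CON (0.27). Relative to its parent, Rpl22l1 stood at 30.5%, 25.7% and 26.4% in LKO 1 to LKO 3, against 20.9%, 24.0% and 22.7% in CON 1 to CON 3, again with no overlap. Rps27l, a p53 target and paralogue of Rps27, stood at 32.3% ± 0.955 of its parent in LKO and 33.1% ± 4.09 in CON (SD, n = 3 each). Rpl7l1 stood at 7.51% ± 2.36 of Rpl7 in LKO and 8.81% ± 0.584 in CON, and Rps4l at 6.89% ± 1.75 of Rps4x in LKO and 7.94% ± 3.37 in CON. These pairs overlapped between the groups.

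The 5 members under a mean of 1 FPKM were all paralogues or copies. Rpl3l, the form of heart and skeletal muscle, was listed between 0 and 0.06 FPKM in the 6 libraries, and Rpl10l and Rpl39l, expressed in testis, at 0 in every library but 1, where Rpl39l was at 0.04 FPKM. Rpl6l was listed at 0 throughout and Rpl32l at 0.22 FPKM in CON 3 alone. Rps12l1 was the lowest member tested, at 5.16, 10.5 and 0.75 FPKM in LKO 1 to LKO 3, against 1.53, 3.74 and 0 FPKM in CON 1 to CON 3. It had the largest log2 fold change of the members, 1.12, with an SE of 0.76 and overlapping groups.

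Ribosomal protein genes have many processed copies in the mouse genome, and reads of a message can be listed under its own row or under a copy. Rows with the same KEGG orthology identifier were therefore added up into 76 families, a step added after the data were seen. Copies filled 2530 rows, of which 56, in 37 families, reached a mean of 1 FPKM. The median log2 fold change was 0.32 for the families' own rows and 0.28 for the sums, and 69 of the 76 sums were above 0. For 9 families the sum moved the value by more than 0.1, 7 of them down and 2 up.

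Rps13 moved most. Its row Rps13-ps1 was at 41.7, 48.0 and 183 FPKM in LKO 1 to LKO 3, against 157, 169 and 192 FPKM in CON 1 to CON 3, and was thus lowest in LKO 1 and LKO 2, where Rps13 itself was highest. The family summed to 371 ± 33.1 FPKM in LKO and 332 ± 37.4 FPKM in CON, and its log2 fold change was 0.16 in place of 0.67. Rpl10 was likewise highest in LKO 1, where Rpl10-ps3 was lowest, at 225, 456 and 492 FPKM in LKO 1 to LKO 3, against 428, 501 and 504 FPKM in CON 1 to CON 3. The Rpl10 sum had a log2 fold change of 0.19 in place of 0.67. Rpl14-ps1 was at 0, 3.26 and 53.2 FPKM in LKO 1 to LKO 3, against 64.0, 65.8 and 54.1 FPKM in CON 1 to CON 3, and the Rpl14 sum had 0.15 in place of 0.51. In all 3 copies LKO 1 was the lowest library.

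Rows of the ubiquitin fusion Rps27a differed sharply between libraries. An assembled locus with its orthology identifier, MSTRG.23354, was listed at 0, 0 and 324 FPKM in LKO 1 to LKO 3, against 266, 339 and 325 FPKM in CON 1 to CON 3. Another, MSTRG.23355, was at 351 and 320.5 FPKM in LKO 1 and LKO 2 and at 0 in LKO 3 and all CON libraries. The assembled row with FPKM above 0 was thus another in LKO 1 and LKO 2 than in the other 4 libraries. Whether both rows hold the same message was not tested. The Rps27a sum had a log2 fold change of 0.31 in place of 0.60. Rpl37, Rpl15 and Rpl21 had 0.38, 0.24 and 0.22 as sums, in place of 0.69, 0.48 and 0.38. Rps6 had 0.08 in place of -0.16, and its copy Rps6-ps4 was at 77.3, 165 and 0 FPKM in LKO 1 to LKO 3, against 16.7, 16.5 and 2.37 FPKM in CON 1 to CON 3. Rps16 had 0.55 in place of 0.42. Rpl28, whose copy Rpl28-ps1 was as abundant as its own row, had 0.77 as a sum and 0.71 alone.

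For some members the own row held little of the family's FPKM. Rpl12, which binds the stalk base, held 3.53% of its family's FPKM and Rps12 2.49%, with most of the rest under Gm10275 and Rps12-ps3. Gm10275 was at 424, 472 and 364 FPKM in LKO 1 to LKO 3, against 232, 322 and 314 FPKM in CON 1 to CON 3, where Rpl12 itself averaged 15.0 ± 0.927 FPKM in LKO and 11.1 ± 3.81 in CON. As sums, neither family overlapped between the groups, with log2 fold changes of 0.53 and 0.60 and limma adjusted p of 0.205 and 0.197. Rpl27a held 13.3% and Rpl5 21.2% of their families. How fragments were shared among copies was not stated, and its part in single values of these genes was not tested.

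**Figure D3:**
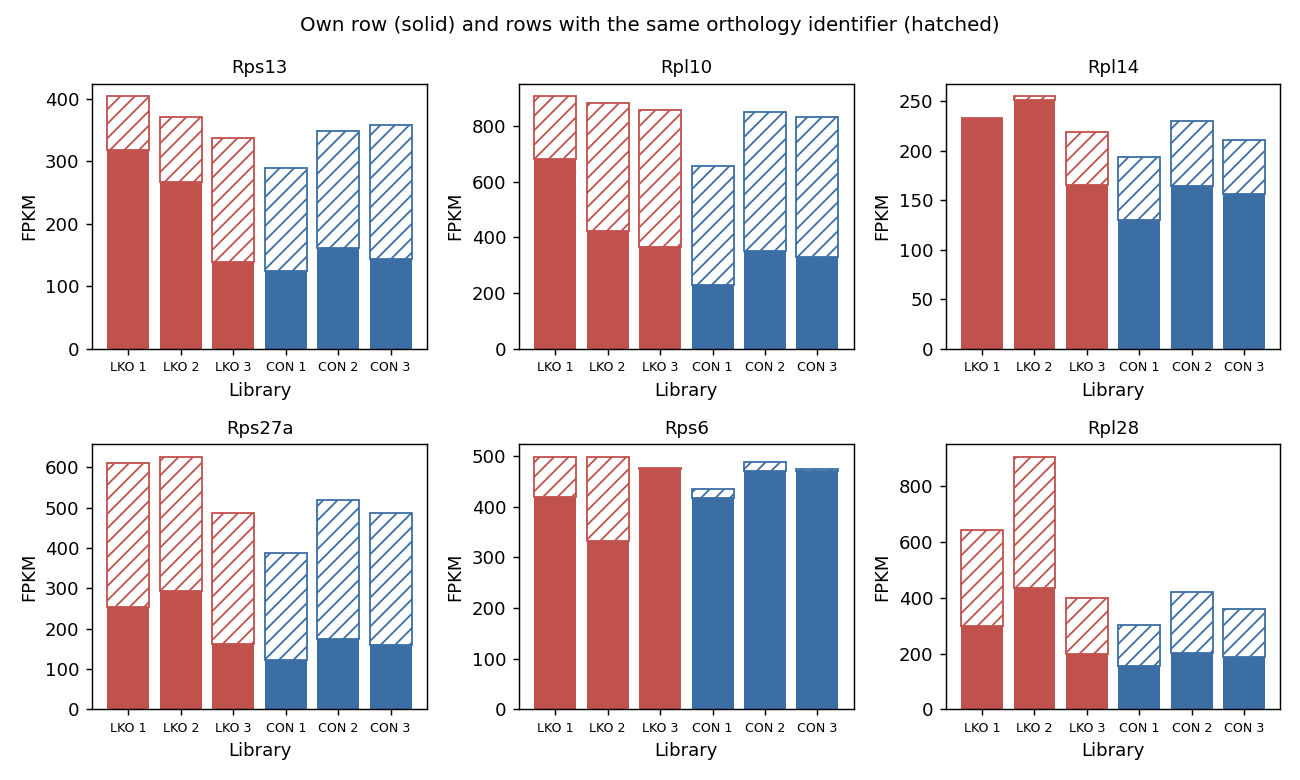
FPKM per library for 6 members, LKO in red and CON in blue, with the gene's own row as the solid part of the bar and all other rows of the same orthology identifier as the hatched part. In Rps13, Rpl10 and Rpl14 the solid part is larger in LKO 1 and LKO 2 while the whole bars differ less. In Rpl28 both parts are larger in LKO 1 and LKO 2.

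The fold change of the members went with the length of the coding sequence. Coding lengths are those of the main transcript in GENCODE M21, because the length column of the table equals the longest annotated transcript and can be far longer than the message, as for Rps15a, with 5179 bases against a coding length of 390. In classes of up to 300, 450, 600, 800 and 1300 bases, the members (10, 28, 19, 14 and 8 genes) had median log2 fold changes of 0.32, 0.41, 0.33, 0.16 and 0.04. The other tested genes had 0.18, 0.01, -0.11, -0.19 and -0.27 in the same classes. Other genes at a mean of at least 50 FPKM had 0.29, 0.13, 0.07, -0.14 and -0.30. The members were thus above other genes in each class, and closest to the abundant ones in the shortest class. Of the 14 members with over 700 coding bases, 13 had values between -0.52 (Rps3) and 0.20 (Rpl6), and Rpsa stood apart at 0.60.

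**Figure D4:**
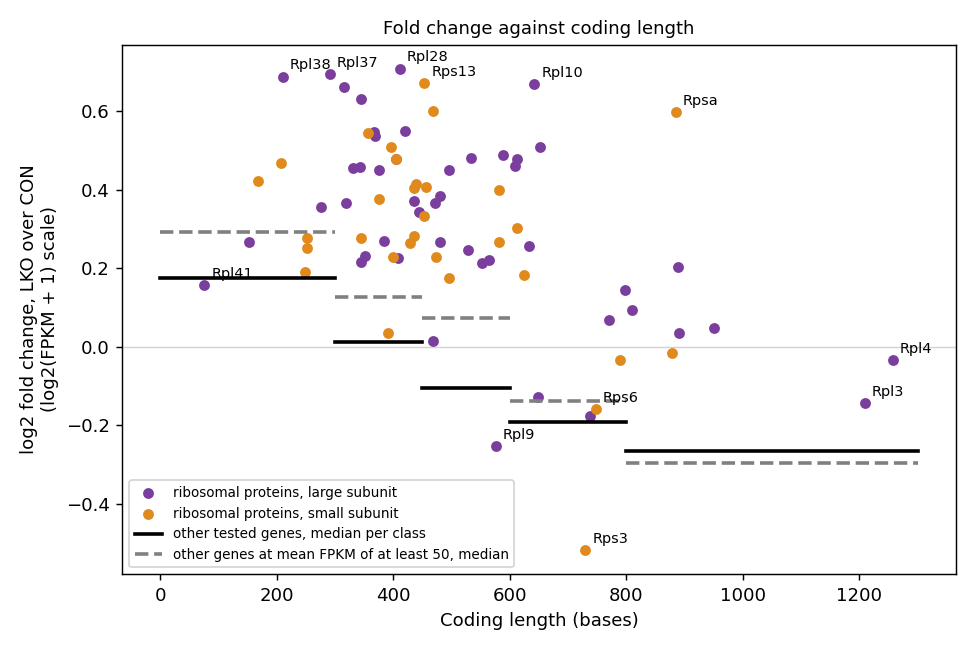
Log2 fold change of LKO over CON on the log2(FPKM + 1) scale against coding length, for large (purple) and small (orange) subunit members. Lines are the medians of other tested genes per length class, solid for all and dashed for those at a mean of at least 50 FPKM. The lines run downward with length, most members lie above them, and Rps3 lies below.

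Spearman's rho between fold change and coding length was -0.43 over 79 members and -0.20 over 9809 other genes, all measured in the same 6 libraries. With the length column it was -0.23 over 81 members and -0.29 over 11023 other genes. With the length of the main transcript it was -0.27 over 79 members and -0.30 over 9809 other genes. The members' trend was thus stronger than that of other genes with coding length only. For the deviation of single libraries from the CON mean, rho with coding length over the members was -0.47, -0.47 and 0.22 in LKO 1 to LKO 3, against 0.11, -0.30 and 0.09 in CON 1 to CON 3. CON 2 thus had the negative sign of LKO 1 and LKO 2, and LKO 3 did not. With the mean level, rho over the members was -0.01. Set against other tested genes of similar length column, the longer at most 25% above the shorter, a member's log2 fold change was higher by a median of 0.32 (-0.26 to 0.94), and 73 of 81 members were above their own comparison genes. That median difference was smaller in other settings, at 0.15 with quantile normalization and 0.20 with array weights. With coding length in its place, the median was 0.37 over 78 members, and it was 0.26 when the comparison genes also had at least 50 FPKM. RNA quality was not given per library, and its part in the trend with length was not tested.

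Genes that work with the ribosome were read from lists, and 0 of each list passed the test. Of the 8 ribosomal proteins that the name pattern does not match, 7 were tested, with a median of 0.48, and all lay above the value of the bulk. Rack1, a scaffold on the small subunit, averaged 290.3 ± 65.8 FPKM in LKO and 188 ± 21.7 FPKM in CON (log2 fold change 0.60, limma adjusted p = 0.197), and Rpl36al averaged 469 ± 62.4 FPKM in LKO and 335 ± 45.4 FPKM in CON (0.48). Translation factors whose messages carry TOP motifs had a median of -0.10 over 19 genes, with a median coding length of 1083 bases. Among them Eef1a1, which delivers transfer RNA, averaged 2187 ± 613 FPKM in LKO and 3010.4 ± 84.8 FPKM in CON (-0.50), while Tpt1 averaged 921 ± 75.0 FPKM in LKO and 702 ± 110 FPKM in CON (0.40). The list with the same motif therefore held values on both sides of 0.

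The machinery that builds and controls ribosomes lay closer to the bulk of genes. Ribosome biogenesis factors had a median log2 fold change of -0.10 over 39 genes, with 24 above the median of all genes. RNA polymerase I with its factors had -0.04 over 15 genes, with 12 above it. Nop56, a core protein of the small nucleolar particles that methylate ribosomal RNA, averaged 13.2 ± 1.13 FPKM in LKO and 8.38 ± 2.73 FPKM in CON (0.63, limma adjusted p = 0.198). Other initiation, elongation and release factors had -0.26 over 32 genes and the mTORC1 pathway -0.27 over 29. Pdcd4, which blocks the helicase Eif4a, averaged 15.7 ± 2.52 FPKM in LKO and 31.4 ± 6.68 FPKM in CON (-0.95, adjusted p = 0.165), with no overlap. The targets of p53 in ribosomal stress had -0.27 over 12 genes. Median coding lengths were 1614 bases for the biogenesis factors and 1359 for RNA polymerase I with its factors. They were 1219.5 for the other translation factors, 1194 for the mTORC1 pathway and 799.5 for the p53 targets. That of the members was 453, and the part of length in these list medians was not tested.

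Other complexes with short messages lay between the members and the bulk. Nuclear subunits of oxidative phosphorylation had a median log2 fold change of 0.21 over 77 genes, with 70 above the median of all genes, mitochondrial ribosomal proteins 0.0048 over 77 genes with 63 above it, and proteasome subunits -0.02 over 37 genes with 29 above it. Their median coding lengths were 411, 588 and 831 bases, and that of the ribosomal protein members 453. In LKO 1 to LKO 3 the oxidative phosphorylation list deviated from the CON mean by a median of 0.39, 0.26 and -0.09, where the ribosomal proteins deviated by 0.40, 0.48 and 0.09.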

How the data were processed

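Liver RNA (TRIzol, DNase I, standard Illumina libraries, per the labels' protocols) was sequenced in 3 LKO and 3 CON libraries. The authors deposited 1 table of FPKM per gene and library, rounded to 2 decimals. HISAT2, StringTie and the build mm9 are named in the submitters' processing notes, and the sources used here give no versions, strand setting or annotation. The table's length column equalled the longest GENCODE M21 transcript for all 55450 genes found there, an annotation of a later build, so no coordinates of the table are given. FPKM are not counts, and no count model was fitted. Two-sided limma 3.58.1 (R 4.3.3; lmFit, eBayes with trend, group as the only term) was run on log2(FPKM + 1) for genes averaging at least 1 FPKM, with Benjamini-Hochberg adjustment over all tested genes and a threshold of 0.05. The SE is moderated, and SDs are of FPKM over 3 libraries. Family sums used the KEGG orthology identifiers of the deposited table, without Rsl24d1 and small nucleolar RNAs. The test was checked on simulated data with independent noise in each gene. Those data held no shifts shared by many genes of a library, so they cannot show how the test behaves with such shifts.

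Members and gene lists were chosen with earlier results of these data known. Named by rule were Cd36, members past the threshold, the 10 members with the smallest p in each direction, the 6 with the highest and lowest levels, those under a mean of 1 FPKM, a list of well-studied members and paralogue pairs, and up to 4 genes of each other list, of which some are not described. Some members are not reported here by name. Rps16, Rpl21, Rpl27a, Rpl6, Rps13, the copies and some list genes were named after their values were seen. Alternatives changed the pseudocount, the filter, the scaling, the length trend, the weights, the replicate block and the libraries used.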

Additional observations from a re-analysis of the deposited data

How the results depend on the processing

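No member passed the threshold under any setting but 2. With array weights, whose convergence tolerance was not reached, 51 of 81 members passed (49 higher, 2 lower). Of all 11104 genes 5864 then passed (1688 higher, 4176 lower). Without LKO 3, 23 of 81 members (22 higher, 1 lower) and 2632 of 11150 genes (521 higher, 2111 lower) passed. Leaving out 1 library gave 0 to 23 members and 0 to 2632 genes. No gene passed with a pseudocount of 0.1, without a filter, at a mean of at least 5 FPKM, with the length trend removed, or with a replicate block, where it was 0 genes and 0 members. Same-numbered libraries correlated at -0.05, 0.17 and 0.07 in their deviations from the group means. Differently numbered libraries were not set beside them, so these values cannot decide whether the numbers pair the libraries. Cd36 relative to the median of all genes was at -2.66 with array weights (limma adjusted p = 0.00118) and -2.69 without LKO 3 (0.0164), and between -2.69 and -1.84 without any 1 library. The median of the members stayed above that of all genes under every setting run. Single genes near that median changed side, and the cause was not tested. Relative to it, Rpl9 was at 0.028 with a pseudocount of 0.1, 0.036 with median-ratio scaling and 0.0021 with the length trend removed. Without a filter, Rps6 was at -0.13, Rpl7l1 at -0.15, Rpl3 at -0.12, Rpl10a at -0.10, Rps4l at -0.14, Rps4x at -0.0099 and Rpl4 at -0.0096. With quantile normalization, Rps6 was at -0.18 and Rpl10a at -0.069. With the length trend removed, Rps6 was at -0.18, Rpl10a at -0.015, Rps4l at -0.23, Rps4x at -0.094 and Rps2 at -0.047, and with array weights Rpl3 was at -0.00097. Leaving out 1 library gave -0.13 to 0.067 for Rpl9, -0.026 to 0.14 for Rps6, -0.058 to 0.19 for Rpl7l1, -0.037 to 0.19 for Rpl10a and -0.15 to 0.24 for Rps4l. The depth in reads is unknown, so no counting error can be given.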
